A study of Mus musculus with 14 samples.

Results

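The naive pluripotency factor genes are 9 genes, Klf2, Klf4, Klf5, Esrrb, Tfcp2l1, Prdm14, Zfp42, Nr5a2 and Dppa3, of the 21938 protein-coding genes of the annotation. They were taken by name. For each one, every peak or island of 5 antibodies was counted and placed in a window that ran from 20 kb before the start of transcription (TSS) to 20 kb beyond the end of the gene. The experiment was chromatin immunoprecipitation followed by sequencing in mouse embryonic stem cells (mESC), for 2 proteins, Smarca4 and Ezh2, and 3 histone marks, H3K4me3, H3K27ac and H3K27me3. The cells, named 81K1, come from 1 clone of the OG2 line, which carries an shRNA against Smarcb1 at the Rosa26 locus under a doxycycline-dependent promoter. Both conditions carry this cassette. Control cells were untreated, and kd cells received 1 µg doxycycline per ml every day for 72 h; both grew on gelatine in serum medium with leukaemia inhibitory factor (LIF). There was 1 library per antibody and condition, so no difference between control and kd has a replicate check and none is tested here. An effect of doxycycline itself cannot be told apart from that of the knockdown.

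The BAF complex moves nucleosomes; Smarca4 is its ATPase and Smarcb1 belongs to its core. Ezh2 is the enzyme of Polycomb repressive complex 2 that writes H3K27me3, a mark of repressed chromatin. H3K27ac lies at active promoters and enhancers and H3K4me3 at promoters. The members encode factors that hold mESC in the naive state, that of the early epiblast. LIF acts through Stat3 on Klf4 and Tfcp2l1, and Esrrb, Klf2, Klf5, Nr5a2 and Prdm14 work beside the core factors Pou5f1, Sox2 and Nanog. Zfp42 (Rex1) and Dppa3 (Stella) are widely used to mark that state, which is left as cells pass to formative and primed pluripotency.

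Ranges in the following are in kb from the start of the gene record in the direction of transcription, and negative values lie upstream. The genes are on the mm10 genome. Klf2 lies at chr8:72319033-72321656, Klf4 at chr4:55527143-55532466, Klf5 at chr14:99298691-99315036 and Esrrb at chr12:86361117-86521628. Tfcp2l1 lies at chr1:118627945-118685168, Prdm14 at chr1:13113457-13127163 and Nr5a2 at chr1:136842571-136960448. Zfp42 lies at chr8:43295063-43306980 and Dppa3 at chr6:122626410-122630272. The strength of a region is given as its rank, the percentile of its MACS2 score (Smarca4, Ezh2) or SICER p-value (the marks) in its own list, with 100 the strongest. Scores and p-values are not scaled between libraries, so conditions are compared by rank, and a score is printed only to describe a peak in its own library. A region that meets no region of the other condition's list of that antibody by at least 1 bp is called control-only or kd-only, and any other is called shared. The lists hold no read counts, and the depth of each library is unknown.

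The cells carried the marks of mESC at the lists fixed for this check. H3K4me3 lay within 1 kb of the TSS of 5 of the 5 stem cell markers (Pou5f1, Nanog, Sox2, Sall4, Lin28a) in both conditions, and H3K27ac at 4 in control and 5 in kd. H3K27me3 lay at the TSS of 5 of 5 neural, 6 of 6 mesoderm and endoderm, 3 of 4 trophoblast (not Elf5) and 5 of 5 fibroblast markers in both conditions. H3K27ac lay at the TSS of 0 genes of these 4 lists in either condition. H3K4me3 lay at the TSS of 4 neural markers in both conditions, 3 mesoderm and endoderm markers in control and 4 in kd, 3 trophoblast markers in control and 2 in kd, and 1 fibroblast marker in control and 4 in kd. The lists do not show the level of Smarcb1 mRNA or protein, so they hold no check of the knockdown.

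Sequences of 6 of the members' promoters were found in a RefSeq table (GRCm38.p6, 300 bp each, mostly before the start). The Zfp42 promoter is shown because Smarca4 lay on it in both conditions and because it held 2 of the motifs searched for. Capitals mark matches to CCACACCC, the letters bound by Klf factors, and to ATGCAAAT, the octamer of Pou factors, here on the other strand as ATTTGCAT.
Zfp42 promoter (chr8:43306960-43307259, minus strand): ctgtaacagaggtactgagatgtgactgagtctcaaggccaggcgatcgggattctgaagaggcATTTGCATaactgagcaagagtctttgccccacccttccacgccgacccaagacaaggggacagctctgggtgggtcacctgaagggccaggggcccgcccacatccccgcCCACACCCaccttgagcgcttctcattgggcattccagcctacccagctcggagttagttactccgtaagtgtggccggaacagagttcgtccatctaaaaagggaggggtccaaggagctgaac
Among all 32851 promoters of the table, 3.56% held the Klf letters and 1.74% the octamer on either strand.

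Esrrb and Nr5a2 are shown with both of their RefSeq starts, because in each the upstream start and the internal start carried different regions. No motif searched for was found in these 4 sequences, and they are printed in lower case. The upstream Esrrb sequence met no Smarca4 peak, and that of the internal start, 60.5 kb into the gene, met one in both conditions.
Esrrb upstream start (chr12:86360867-86361166, plus strand): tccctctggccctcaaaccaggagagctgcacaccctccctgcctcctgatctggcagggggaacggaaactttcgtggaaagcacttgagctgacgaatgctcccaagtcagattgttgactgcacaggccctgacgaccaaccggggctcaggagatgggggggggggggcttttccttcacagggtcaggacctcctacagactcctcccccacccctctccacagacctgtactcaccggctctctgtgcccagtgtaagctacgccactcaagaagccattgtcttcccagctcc
Esrrb internal start (chr12:86421394-86421693, plus strand): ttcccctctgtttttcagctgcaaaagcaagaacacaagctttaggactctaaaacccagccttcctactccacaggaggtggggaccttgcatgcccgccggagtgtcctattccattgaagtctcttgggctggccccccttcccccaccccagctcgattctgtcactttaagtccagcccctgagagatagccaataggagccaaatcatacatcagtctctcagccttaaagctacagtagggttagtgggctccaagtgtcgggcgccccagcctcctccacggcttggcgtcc
The same held for Nr5a2, whose internal start lies 6.82 kb into the gene.
Nr5a2 upstream start (chr1:136960399-136960698, minus strand): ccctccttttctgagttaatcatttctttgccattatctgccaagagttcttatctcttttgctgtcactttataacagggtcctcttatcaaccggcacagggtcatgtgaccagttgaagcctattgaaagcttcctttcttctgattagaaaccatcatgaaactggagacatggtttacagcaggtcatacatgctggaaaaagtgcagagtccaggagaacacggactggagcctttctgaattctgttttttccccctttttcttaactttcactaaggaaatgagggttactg
Nr5a2 internal start (chr1:136953581-136953880, minus strand): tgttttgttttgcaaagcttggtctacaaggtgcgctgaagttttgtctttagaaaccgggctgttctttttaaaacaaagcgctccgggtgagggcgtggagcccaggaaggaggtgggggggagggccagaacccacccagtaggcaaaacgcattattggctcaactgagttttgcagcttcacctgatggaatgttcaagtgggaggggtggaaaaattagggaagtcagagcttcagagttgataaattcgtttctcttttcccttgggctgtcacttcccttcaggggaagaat
The upstream Nr5a2 sequence held 2 CpG and the internal one 7. The promoters of Klf4, Klf2 and Tfcp2l1 held 40, 32 and 21 CpG, against a median of 7 over the table.

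Smarca4 peaks were dense around the members in both conditions. The 9 windows held 163 peaks in control and 170 in kd, with a median of 16 and 17 per member against 3 and 3 over all protein-coding genes. All 9 members had a Smarca4 peak in their window in both conditions, as had 80.0% of protein-coding genes in control and 82.7% in kd. The median percentile of the members' counts among protein-coding genes was 93.1 in control and 95 in kd. Klf4 stood lowest, at 68.5 and 49.2, and Esrrb highest, at 99.8 in both. Windows differ in length, from 42.6 kb for Klf2 to 200.5 kb for Esrrb. Per 10 kb of window, Klf2 had the most peaks (6.1 in control, 7.04 in kd) and Nr5a2 the fewest (0.633) in control and Klf4 (0.662) in kd.

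Of the control peaks, 55 (33.7%, 95% Wilson interval 26.9 to 41.3) were control-only, against 43.9% of the whole control list. Of the kd peaks, 41 (24.1%, 18.3 to 31.1) were kd-only, against 35.6% of the kd list. These intervals cover counting error only. Condition-only peaks ranked low. Their median rank was 30.8 in control and 36.9 in kd, against 68.1 and 56.2 for shared peaks. All 9 members had a control-only peak, as had 55.5% of protein-coding genes, and 8 had a kd-only peak, as had 58.2%; Klf4 had none. The peaks of the windows covered 123.2 kb in control and 104.0 kb in kd, while the whole lists covered 49.16 and 40.53 Mb.

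**Figure D1:**
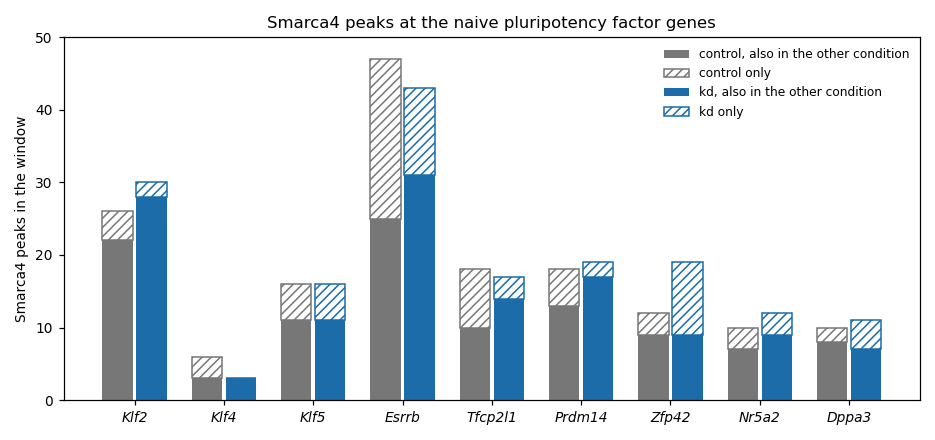
Number of Smarca4 peaks (y axis) in the window of each member (x axis) in control (grey) and kd (blue), 1 library each, with solid bars for peaks met in both conditions and hatched bars for peaks of 1 condition. Zfp42 had 12 peaks in control and 19 in kd, Klf4 6 and 3, and Esrrb had the most in both, 47 and 43.

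The number of peaks in kd was higher at 5 members, lower at 3 and equal at 1. Over protein-coding genes, 32.6% had more in kd and 32.8% fewer. Zfp42 differed most upward, from 12 to 19 peaks, a difference at the 99.0 percentile of all protein-coding genes. Klf2 had 26 and 30, Nr5a2 10 and 12, Prdm14 18 and 19, and Dppa3 10 and 11. Klf5 had 16 in both, but 7 fewer in kd under a stricter threshold that kept scores from 50 (kd minus control −7), 2 more with a flank of 5 kb and 4 more with 50 kb. Esrrb had 47 and 43, Klf4 6 and 3, and Tfcp2l1 18 and 17. The direction at Klf2, Esrrb, Tfcp2l1, Prdm14 and Nr5a2 turned under at least 1 of the other settings tried, while that at Zfp42 and Klf4 turned under none. Their size moved, from 7 at Zfp42 to 2 under the stricter threshold, 3 with a flank of 5 kb, 4 with near peaks merged or repeat-masked peaks left out, and 11 with a flank of 50 kb. At Klf4 it moved from −3 to −1 under the stricter threshold. The covered length was shorter in kd at 6 members, Klf2, Klf4, Esrrb, Tfcp2l1, Prdm14 and Nr5a2, and longer at Klf5, Zfp42 and Dppa3. It was shorter in kd at 49.1% of protein-coding genes.

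The ranks of the shared peaks were compared for each control peak with the strongest kd peak it met. In the windows, 58.3% of 108 shared peaks ranked lower in kd, with a median difference of −3.5 percentile points. Over all 44340 shared peaks, 50.4% ranked lower and the median was −0.104. Klf2 had 14 of 22 lower (median −12.8), Prdm14 9 of 13, Tfcp2l1 8 of 10 (−9.8) and Klf4 3 of 3 (−6.0). Zfp42 went the other way, with 8 of 9 higher and a median of 18.3. Esrrb (−1.7), Klf5 (−1.7), Nr5a2 (2.6) and Dppa3 (3.5) had medians near 0.

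**Figure D2:**
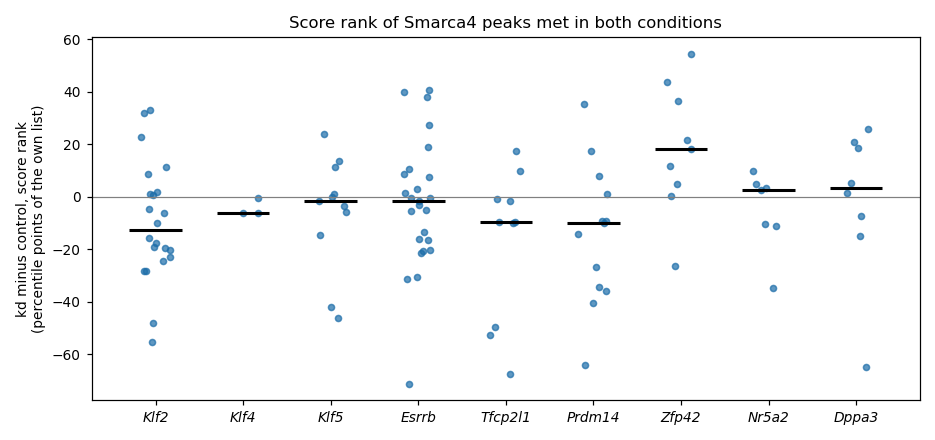
Difference in score rank, kd minus control, in percentile points of the own list (y axis), for each control Smarca4 peak that met a kd peak, by member (x axis), with black bars for the medians. The median was 18.3 at Zfp42 and −12.8 at Klf2, and at every member but Klf4 the points lie on both sides of 0.

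Pooled over the members, Smarca4 peaks lay mainly in acetylated chromatin, but this did not hold at every member. In control, 103 of 163 peaks (63.2%, 55.6 to 70.2) overlapped an H3K27ac island, against 23.2% of the whole list. In kd, it was 121 of 170 (71.2%, 64.0 to 77.5) against 40.8%. Members with many peaks weigh most in these shares, as Esrrb with 47 and Klf2 with 26 in control. The intervals treat neighbouring peaks under the same island as independent. At Klf4, the promoter pair and the distal peak met no H3K27ac island in control, and in kd the promoter pair did. H3K27me3 islands met 15.3% of the control peaks and 11.2% of the kd peaks, against 34.6% and 24.4% of the whole lists. The share in H3K4me3 islands was 36.2% in control, against 35.0% of the list, and 38.2% in kd, against 50.4%. Ezh2 peaks met 1.23% and 1.76%, against 4.21% and 8.32%. By the methods, Smarca4 and H3K27me3 were handled by a different laboratory from the other antibodies, and the laboratory cannot be told apart from the antibody in these shares.

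Within 1 kb of the TSS, Smarca4 was listed at 7 members in control and 8 in kd, against 62.5% and 63.5% of protein-coding genes. H3K4me3 was listed at 7 in both conditions (56.6% and 60.4% of genes), the exceptions being Esrrb and Nr5a2. H3K27ac was listed at 4 in control (Klf2, Klf5, Zfp42, Nr5a2) and 6 in kd (Klf2, Klf4, Klf5, Tfcp2l1, Zfp42, Dppa3), against 16.0% and 30.9% of genes. H3K27me3 was listed at 5 in control (Klf4, Esrrb, Prdm14, Nr5a2, Dppa3) and 3 in kd (Esrrb, Prdm14, Dppa3), against 34.9% and 29.2%. Ezh2 was listed at none in control and at Prdm14 alone in kd, against 7.13% and 12.6%.

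Klf2 and Klf4 encode Krüppel-like factors that can sustain self-renewal. At Klf2, the strongest Smarca4 peak was at 13.8 to 16.9 kb in control (score 413, rank 98.4) and at the promoter, −0.337 to 2.57 kb, in kd (score 472, rank 98.9). The promoter peak ranked 97.9 in control, while the downstream peak ranked 73.9 in kd. The strongest control-only peak was at −16.7 to −16.4 kb (rank 38.4) and the strongest kd-only one at −17.2 to −17.0 kb (rank 68.5). Peaks were narrower in kd, with a median of 288.5 bp against 681.5 bp, and covered 16.1 kb against 23.4 kb. The whole Smarca4 list was also narrower in kd, with a median of 391 bp against 435 bp. A single H3K27ac island of 35.4 kb ran from −12.0 to 23.4 kb in control (rank 69.5). In kd, the same stretch held 4 islands, of which the one on the promoter, −12.0 to 5.37 kb, ranked 99.6, and a kd-only island lay at −18.8 to −15.2 kb (rank 10.9). H3K4me3 covered −1.03 to 5.17 kb in control and −2.43 to 4.97 kb in kd. No H3K27me3 island and no Ezh2 peak lay in the window in either condition. The neighbouring coding gene Gm10282 starts within this window, at −13.8 kb.

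Klf4 had few Smarca4 peaks. A pair at the promoter and a distal one at 16.9 to 18.0 kb, past the gene end, were shared. The distal peak was the strongest in control (score 322, rank 96.5) and ranked 90.5 in kd, where the promoter peak at 0.552 to 2.5 kb was the strongest (score 296, rank 94.6). The strongest promoter peak of control, at 0.142 to 2.51 kb, ranked 95.1. The 3 control-only peaks, with ranks of 3.13, 11.6 and 35.7, lay between 4.17 and 12.5 kb. H3K27me3 had 3 islands in control and 0 in kd. They lay at 0.266 to 2.07 kb (rank 23.7), at 9.07 to 17.3 kb (rank 68.1) and at 18.7 to 20.9 kb (rank 45.2). H3K27ac took different places in the 2 conditions. The only control island was at 3.47 to 6.67 kb (rank 63.1), and in kd islands lay on the promoter, −1.73 to 2.47 kb (rank 83.3), and at −6.53 to −4.74 kb (rank 45.9). H3K4me3 covered the promoter in both, with 9400 and 9600 bp. The distal Smarca4 peak also carried an H3K4me3 island in both conditions (ranks 0.892 and 41.3).

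Klf5 encodes another Krüppel-like factor of the naive network. It had the strongest promoter peak of the 9 members, at −0.66 to 1.58 kb in control (score 758, rank 99.9) and −0.71 to 1.48 kb in kd (score 707, rank 99.8). The strongest control-only peak lay at 2.78 to 3.62 kb (rank 74.9) and the strongest kd-only peak at 13.4 to 14.04 kb (rank 36.9). Its H3K4me3 island was 22400 bp wide in control, from −4.09 to 18.3 kb, and 10400 bp in kd, from −1.29 to 9.11 kb. This difference of −12 kb was at the 0.3 percentile of protein-coding genes. H3K27ac covered 29.8 kb in 7 islands in control and 20.6 kb in 6 islands in kd (with a stricter threshold, a −log10 p of at least 10, kd had 2 more than control), and the promoter island was shared, with ranks of 26.2 and 54.8. A control-only H3K27ac island lay beside it, at −3.09 to −0.891 kb (rank 18.6). Upstream, at −8.65 to −8.26 kb, lay an Ezh2 peak in control alone (score 104, rank 70.7), wholly in repeat-masked sequence. It sat within a control-only H3K27me3 island at −10.1 to −7.09 kb (rank 12.1), and in kd an H3K27ac island lay across part of it, at −8.49 to −5.89 kb (rank 69.4). The other H3K27me3 island, at the upstream edge of the window, was shared and ran to −12.9 kb in control (rank 64.8) and to −15.9 kb in kd (rank 31.1).

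**Figure D3:**
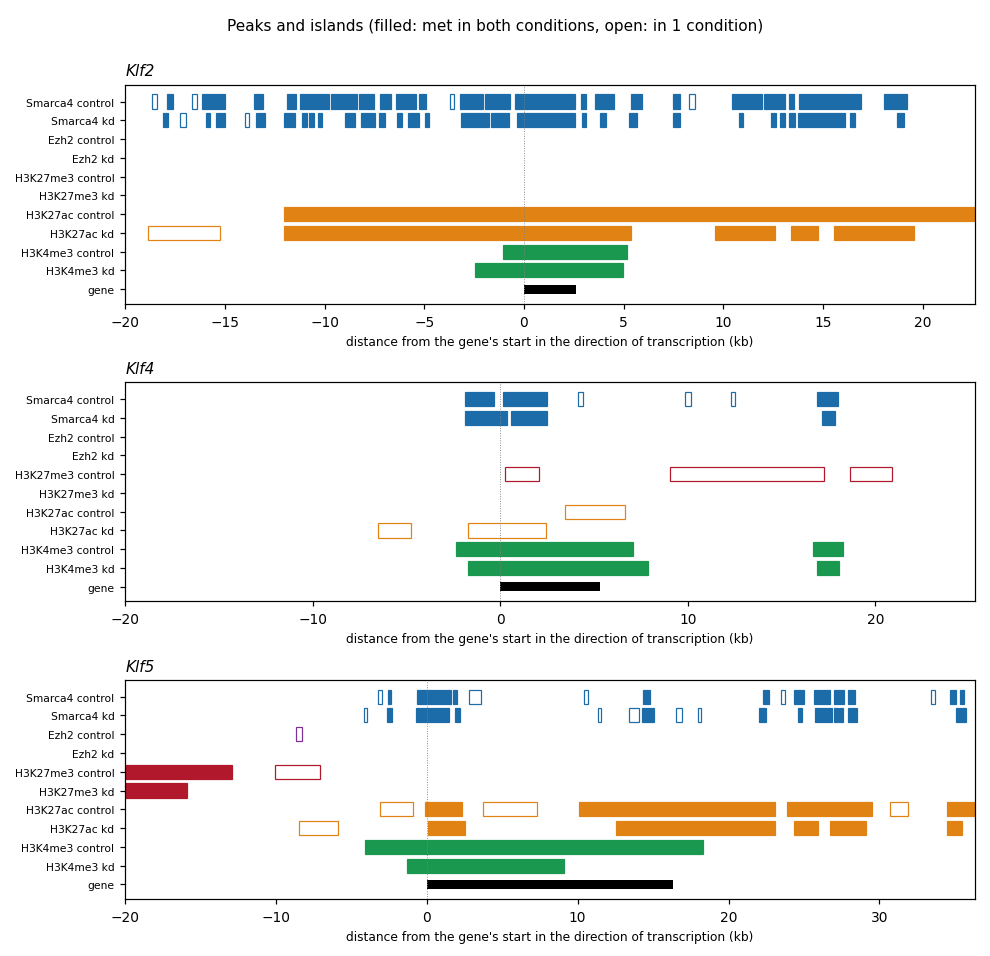
Regions of the 5 antibodies in control and kd (rows) along the windows of Klf2, Klf4 and Klf5, by distance in kb from the gene's start in the direction of transcription (x axis), with regions cut at the window's edges, the gene as a black bar, filled boxes for regions met in both conditions and open boxes for those of 1 condition. The single control H3K27ac island of Klf2, which runs past the window's end, the 3 control-only H3K27me3 islands of Klf4 and the H3K4me3 island of Klf5, 22400 bp in control and 10400 bp in kd, can be read off.

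Esrrb encodes an orphan nuclear receptor, and its 160.5 kb gene held active and Polycomb-marked stretches side by side. At the upstream start lay H3K27me3, from −15.9 to 3.48 kb in control (rank 79.3) and −12.9 to 0.683 kb in kd (rank 8.67), and no region of another antibody within 1 kb. At the internal start 60.5 kb into the gene, whose sequence is given above, Ezh2, H3K27me3, Smarca4 and H3K4me3 were listed in both conditions. Ezh2 had peaks at 60.5 to 60.9 kb (score 96, rank 66.3) and 61.1 to 62.0 kb (score 64, rank 42.1) in control and 1 wider peak at 60.3 to 62.3 kb in kd (score 288, rank 75.0). The strongest Smarca4 peak of the window lay on this start in both conditions, at 60.3 to 61.8 kb (ranks 95.7 and 94.0). The H3K27me3 island there had a p-value listed as 0 in both conditions, and was 26200 bp wide in control and 34600 bp in kd. H3K4me3 islands of 1800 bp lay on it in both (ranks 40.5 and 50.7).

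The downstream part of Esrrb was in the other state. An H3K4me3 island ran from 104.9 to 122.1 kb in control and 107.1 to 122.7 kb in kd, over an annotated transcript start at 109.0 kb. H3K27ac covered 103.7 to 147.1 kb in 2 islands in control. In kd, 7 islands lay between 103.9 and 146.5 kb, and of these 3 ranked above 98. Outside this stretch, H3K27ac islands were kd-only at 96.1 to 97.3 kb (rank 24.7) and 161.5 to 163.1 kb (rank 32.1) and control-only at 170.9 to 174.3 kb (rank 24.7). The strongest control-only Smarca4 peak of all 9 windows lay just before this stretch, at 101.7 to 102.3 kb (rank 86.1), and the strongest kd-only one of this gene at 95.1 to 95.4 kb (rank 49.6). H3K27me3 in the whole window had 8 islands in control and 3 in kd, covering 96.4 and 51.2 kb. The difference in covered length was at the 0.6 percentile of protein-coding genes. The 3 control-only islands lay at 4.28 to 12.1, 14.3 to 21.7 and 165.1 to 171.3 kb, with ranks of 47.6, 53.0 and 53.1. Shared islands lay at 22.5 to 35.1, 36.7 to 45.3 and 172.3 to 184.3 kb in control (ranks 72.0, 84.2 and 85.2), and at 177.5 to 197.1 kb in kd (rank 82.1). The regions past the gene end lay nearer to the start of Vash1 than to that of Esrrb.

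Nr5a2 encodes another orphan nuclear receptor and Tfcp2l1 a CP2-type factor downstream of LIF and Stat3. All regions in the 117.9 kb of Nr5a2 lay in its first 17.2 kb. The strongest Smarca4 peak lay at 10.3 to 13.4 kb in control (score 333, rank 96.8) and 10.2 to 13.3 kb in kd (score 543, rank 99.4), over transcript starts at 10.9 and 11.3 kb. H3K4me3 covered these starts and the one at 6.82 kb, from 5.85 to 17.2 kb in control and 6.25 to 16.2 kb in kd. Of Smarca4, a weak kd-only peak at 0.807 to 1.00 kb (rank 27.8) lay within 1 kb of the upstream start. The strongest kd-only peak of all 9 windows lay next to it, at 1.29 to 1.73 kb (rank 73.0), and the strongest control-only peak of the gene at 13.7 to 14.1 kb (rank 59.0). H3K27me3 had 2 islands in control alone, at −5.35 to 1.65 kb (rank 35.3) and 11.2 to 14.6 kb (rank 38.0). The H3K27ac island at 0.648 to 11.8 kb in control (rank 66.6) was matched in kd by islands at 2.05 to 3.65 kb (rank 76.5) and 4.85 to 11.7 kb (rank 86.3). A kd-only H3K27ac island lay upstream, at −14.75 to −11.55 kb, and the window also held 1 kd-only H3K4me3 island.

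At Tfcp2l1, the strongest Smarca4 peak was intronic in control, at 19.6 to 20.8 kb (score 406, rank 98.3), and lay on the promoter in kd, at −0.366 to 0.747 kb (score 296, rank 94.6). In kd, the intronic stretch held 2 peaks, with ranks of 73.7 and 88.5, and the promoter peak had ranked 96.1 in control. The strongest control-only peak lay at −1.46 to −0.923 kb (rank 65.4) and the strongest kd-only peak at 4.20 to 4.48 kb (rank 50.2). A kd-only H3K27ac island covered the promoter, −1.94 to 2.85 kb (rank 69.4). H3K27ac in the intron ran from 12.3 to 24.7 kb in control (rank 46.4) and was 2 islands, with ranks of 89.8 and 74.9, in kd. H3K4me3 lay on the promoter in both conditions, 8800 and 6400 bp wide. The only H3K27me3 island was control-only, at −6.34 to −3.14 kb (rank 49.6).

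**Figure D4:**
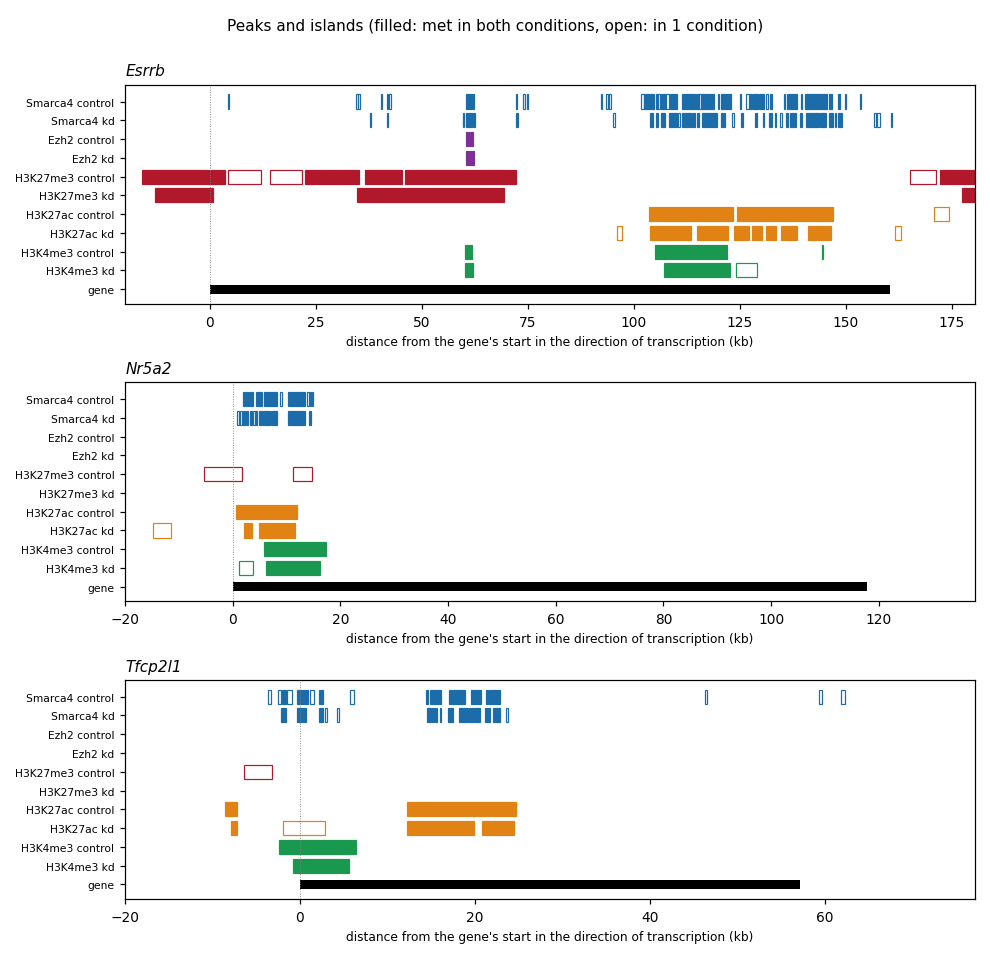
Regions of the 5 antibodies in control and kd along the windows of Esrrb, Nr5a2 and Tfcp2l1, drawn as in the map of the Klf genes, with distance from the gene's start in kb on the x axis. In Esrrb, H3K27me3 lies over the upstream part and again past the gene end, shared H3K27ac islands lie between 103.7 and 147.1 kb, and the Ezh2 peaks lie at 60.3 to 62.3 kb.

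Prdm14, which encodes a factor that holds back differentiation signals and works with Polycomb proteins, had a promoter with both H3K4me3 and H3K27me3. H3K27me3 covered −4.64 to 5.16 kb in control (rank 94.7, shared by all islands with p listed as 0) and −7.44 to 5.36 kb in kd (rank 90.1). It was the only member where H3K27me3 covered more in kd (12.8 kb against 9.8 kb), as at 18.4% of protein-coding genes. Ezh2 had 2 peaks in kd alone, at 0.387 to 0.806 kb (score 29, rank 4.07) and 1.23 to 1.56 kb (score 33, rank 6.02), both among the weakest of their list. H3K4me3 lay at −0.237 to 3.76 kb in control (rank 61.7) and −1.64 to 3.76 kb in kd (rank 44.1). The promoter peak of Smarca4 at −0.571 to 2.30 kb was the strongest in control (score 221, rank 91.5) and ranked 81.5 in kd. There, the strongest lay past the gene end, at 21.6 to 22.5 kb (score 171, rank 84.1). The strongest control-only peak was at −19.6 to −19.0 kb (rank 31.5) and the strongest kd-only peak at −7.45 to −6.87 kb (rank 48.6). That peak overlapped a kd-only H3K27ac island, −7.24 to −5.44 kb (rank 80.2), at the upstream end of the kd H3K27me3 island. The strongest H3K27ac lay past the gene end, as 1 island of 35400 bp in control (rank 99.9) and islands of 8000 and 10200 bp (ranks 99.0 and 94.9) in kd.

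Zfp42 encodes a zinc finger protein. Smarca4 stood higher in kd here by count, by covered length (6.39 and 9.34 kb) and by the median rank of shared peaks. The promoter peak lay at −0.272 to 0.165 kb in control (score 127, rank 78.5) and at −1.09 to 0.255 kb in kd (score 230, rank 90.2). It overlaps the promoter sequence given above, with the Klf and octamer letters. The strongest peak was at −14.6 to −13.7 kb in control (score 164, rank 85.3). In kd, it was at 11.0 to 11.3 kb, in the last part of the gene (score 233, rank 90.4), where the control peak ranked 72.1. The 10 kd-only peaks lay on both sides of the promoter, and 4 of them in the gene body. The strongest, at 3.04 to 3.60 kb, ranked 70.0, and the strongest of 3 control-only peaks, at −1.62 to −1.33 kb, ranked 59.0. H3K27ac on the promoter was among the strongest of both lists, with a rank of 99.9 in control and the lowest p-value class, listed as 0, in kd, and with widths of 20400 and 16800 bp. H3K4me3 there was 20200 bp wide in control and 17200 bp in kd. The only H3K27me3 island was shared, and was 5600 bp wide in control (−13.2 to −7.62 kb, rank 70.7) and 2200 bp in kd (−12.8 to −10.6 kb, rank 36.1). Zfp42 and Klf2 lie on chromosome 8, where 48.9% of kd H3K27me3 islands were kd-only, against 28.9% in the list, and 45.0% of control and 30.1% of kd Smarca4 peaks were condition-only. The part of the chromosome in these values was not tested.

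Dppa3 encodes a protein that protects the DNA methylation of the maternal genome in the zygote. Smarca4 was strongest at −2.03 to −1.05 kb in control (score 171, rank 86.1) and at −18.5 to −16.4 kb in kd (score 357, rank 97.0), where the neighbouring gene Gdf3 starts at −16.3 kb. The control peaks met by that kd peak ranked 76.2 and 71.2, and the kd peak at −1.74 to −1.07 kb ranked 21.3. At the TSS, peaks at 0.046 to 0.398 and 0.761 to 2.81 kb ranked 70.0 and 67.0 in control, and those at −0.335 to 0.607 and 0.804 to 2.72 kb ranked 75.4 and 85.5 in kd. The strongest control-only peak, at −15.4 to −15.2 kb, ranked 42.6, and the strongest kd-only peak, at −14.8 to −14.5 kb, 66.5. H3K27ac covered 4.59 kb in 1 island in control and 21.4 kb in 5 islands in kd, a difference at the 99.2 percentile of protein-coding genes. The control island, 4600 bp wide, ran past the upstream edge of the window, on the side of Gdf3 and away from the Dppa3 TSS. Of the 5 kd islands, 4 were kd-only. They lay at −10.2 to −3.41 kb (rank 84.8), on the promoter at −0.809 to 3.19 kb (rank 51.9), and at 6.59 to 8.79 and 12.8 to 16.6 kb (ranks 49.9 and 57.8). Those at −10.2 and 12.8 kb were 68.6% and 65.0% repeat-masked, and with islands under 50% repeat-masked alone, kd had 2 more than control in place of 4. H3K27me3 had 4 islands in control and 2 in kd, all shared. In control, they lay at −11.8 to −8.81, −7.81 to −0.21, 0.791 to 2.79 and 3.59 to 10.8 kb, with ranks of 69.4, 83.2, 46.0 and 47.4. In kd, they lay at −11.8 to −0.21 kb (rank 66.8) and 1.19 to 3.99 kb (rank 31.4). The promoter carried H3K4me3 in both conditions, with ranks of 46.0 and 51.7.

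**Figure D5:**
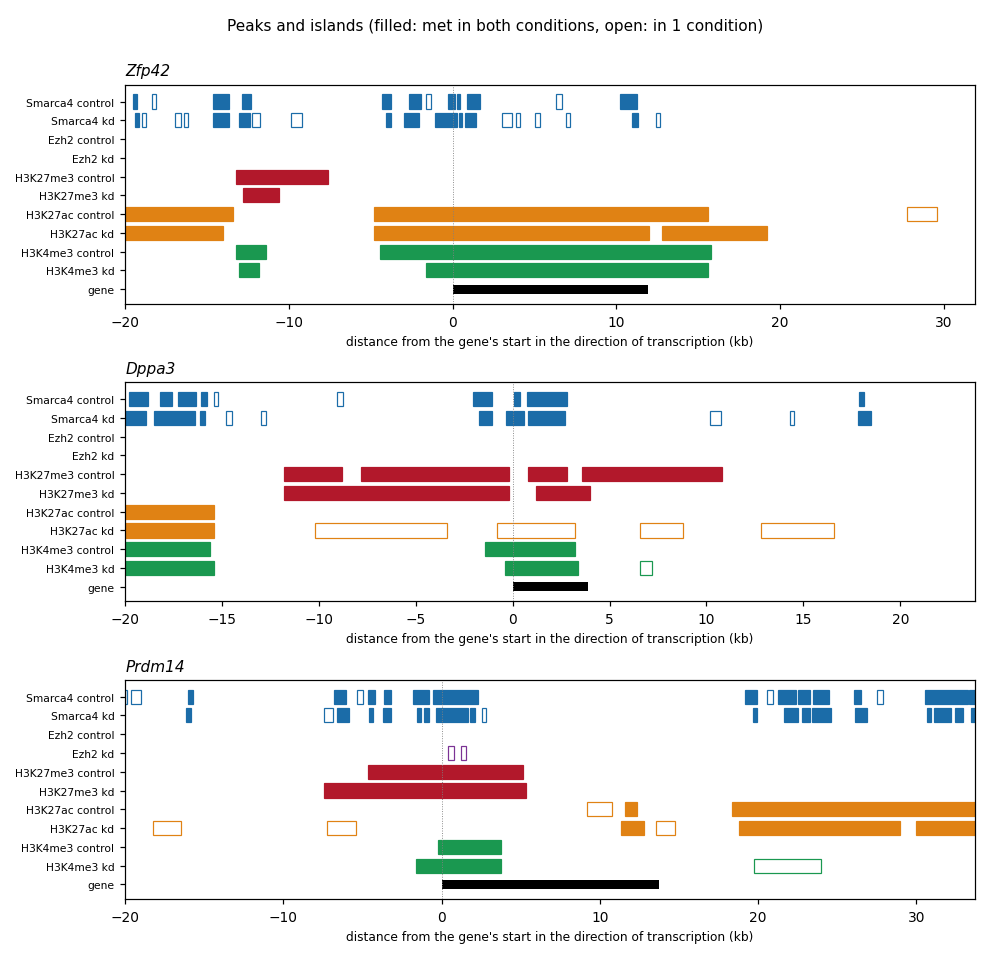
Regions of the 5 antibodies in control and kd along the windows of Zfp42, Dppa3 and Prdm14, drawn as in the map of the Klf genes, with distance from the gene's start in kb on the x axis. At Zfp42 10 Smarca4 peaks are open boxes in kd against 3 in control, and at Dppa3 4 of 5 H3K27ac islands are kd-only.

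Over the 9 windows, H3K27me3 had 22 islands in control and 8 in kd, covering 167.5 and 84.7 kb. The whole lists held 22909 and 18320 islands over 195.4 and 144.8 Mb. An island was listed in the window of 8 members in control and 5 in kd, against 65.0% and 56.0% of protein-coding genes. Fewer islands were listed in kd at 6 members and more at none, against 35.5% and 12.1% of protein-coding genes. Control-only islands were found at 5 members (Klf4, Klf5, Esrrb, Tfcp2l1, Nr5a2) and kd-only islands at none, against 36.4% and 11.8% of genes. Ezh2 had 3 peaks in each condition, in the windows of 2 members, against 21.2% and 22.5% of genes. A control-only Ezh2 peak was listed at 1 member and a kd-only one at 1, against 11.2% and 14.0% of genes.

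H3K27ac had 22 islands in control and 43 in kd, but the covered length was 189.6 and 192.3 kb. The whole lists held 39091 and 51100 islands with a median width of 3400 and 2600 bp. All 9 members had an island in both conditions, against 60.3% and 76.3% of genes, and 7 had more islands in kd, against 50.1%. The control island of Dppa3 lay at the upstream edge of its window. Covered length was longer in kd at 6 members and shorter at 3, against 54.0% and 23.7% of genes. It was shorter at Klf2, Klf5 and Esrrb, with differences at the 3.3, 0.9 and 1.2 percentiles. Islands of kd alone were found at 8 members and of control alone at 5, against 56.2% and 22.4% of genes. Of the 15 kd-only islands, 5 (33.3%, 15.2 to 58.3) met an H3K27me3 island of control, at Klf4, Klf5 and Dppa3, against 14.8% of all kd-only islands. This interval comes from few islands and covers counting error only. Islands of the same window, as at Dppa3, are not independent, so no difference from the list is read from it. Other pairings also stood above their lists. Of the 15 kd-only H3K27ac islands, 3 met an H3K27me3 island of kd, against 8.48% of the list. Of the 10 control-only H3K27me3 islands, 3 met an H3K27ac island of control, against 4.96%, and 3 one of kd, against 13.1%. No pairing was tested. H3K4me3 had 14 islands in control and 17 in kd, at all 9 members in both, against 78.1% and 83.4% of genes. A control-only H3K4me3 island was listed at 1 member and kd-only ones at 4, against 6.57% and 30.5%. With lists of equal length or the stricter threshold, 1 kd-only H3K4me3 island was listed in place of 4.

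Genes that act with the members were described by the same counts, to be read against the TSS shares of protein-coding genes given above. Of the 4 core factors Pou5f1, Sox2, Nanog and Sall4, all had Smarca4, H3K27ac and H3K4me3 at the TSS in both conditions, and their median count of Smarca4 peaks was 22 in both. H3K27me3 lay at the TSS of none in control and of Sall4 in kd. Of 12 other naive and general pluripotency genes, 12 had Smarca4 at the TSS in both conditions. H3K27ac was at the TSS of 8 of them in control and 11 in kd (not Nr0b1), against 16.0% and 30.9% of protein-coding genes. H3K27me3 was at the TSS of Gbx2 and Tbx3 in both conditions. Of 5 LIF-Stat3 genes, Smarca4 was at the TSS of 5 in control and 4 in kd (not Lifr), and H3K4me3 at 4 in both. The 12 formative and primed genes had Smarca4 at the TSS of 12 in both conditions and H3K4me3 at 10 in control and 11 in kd. H3K27me3 was at the TSS of 11 in both conditions, all but Pim2, and Ezh2 at 9 in control and 8 in kd, while H3K27ac was at 1 in control (Lin28b) and 5 in kd.

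Letters of motifs of the members and their partners were counted in the central 300 bp of the Smarca4 peaks, on both strands. The Klf letters CCACACCC were in 13 of 163 control peaks (7.98%, 4.72 to 13.2) and 9 of 170 kd peaks (5.29%, 2.81 to 9.75), against 4.74% and 3.79% of the whole lists. The Esrrb letters TCAAGGTCA were in 4 control peaks (2.45%, 0.958 to 6.14) and 2 kd peaks (1.18%, 0.323 to 4.19), against 1.15% and 0.842%. The octamer was in 3 peaks in each condition (1.84% and 1.76%), against 1.5% and 1.00%. The Stat letters TTCCNGGAA were in 2 in each (1.23% and 1.18%), against 1.09% and 0.950%. Every interval held the share of its whole list, that of the Klf letters in control only narrowly (from 4.72, against 4.74%). Peaks of the same window are not independent, and no difference from the list was tested.

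The matches to the Esrrb letters are shown because they fall in peaks in the windows of other naive factor genes and of Esrrb itself. Capitals mark the match, on the strand of the gene. In control, 3 of 4 lay in control-only peaks (Klf2, Esrrb, Tfcp2l1) and the one of Prdm14 in a shared peak.
Klf2, chr8:72302565-72302633: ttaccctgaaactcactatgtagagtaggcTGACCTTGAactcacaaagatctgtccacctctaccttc
Esrrb, chr12:86365560-86365628: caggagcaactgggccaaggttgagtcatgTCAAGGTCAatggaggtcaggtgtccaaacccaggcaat
Tfcp2l1, chr1:118629220-118629288: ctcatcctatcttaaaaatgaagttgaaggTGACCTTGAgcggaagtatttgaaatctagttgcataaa
Prdm14, chr1:13100941-13101009: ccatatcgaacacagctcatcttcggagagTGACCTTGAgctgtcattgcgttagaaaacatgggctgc
In kd, both lay in shared peaks, at Klf5 and Dppa3.
Klf5, chr14:99325722-99325790: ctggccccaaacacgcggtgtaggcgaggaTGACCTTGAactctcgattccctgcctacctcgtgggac
Dppa3, chr6:122606841-122606909: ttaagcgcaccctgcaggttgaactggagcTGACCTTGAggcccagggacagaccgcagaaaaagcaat
The Klf2 peak was 64.3% repeat-masked and lay nearer to the start of Gm10282 than to that of Klf2. The Dppa3 match lay nearer to the start of Gdf3 than to that of Dppa3. The distal Klf4 peak at 16.9 to 18.0 kb held the Klf letters near its centre in both conditions, and the Zfp42 peak near −2.37 kb the Stat letters.
Klf4, chr4:55514918-55514985: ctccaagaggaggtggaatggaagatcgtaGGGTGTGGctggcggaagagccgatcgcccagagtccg
Zfp42, chr8:43309322-43309390: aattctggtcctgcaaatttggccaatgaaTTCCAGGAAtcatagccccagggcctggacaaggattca
A match is a description of the letters and says nothing on which factor is bound.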

How the data were processed

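Chromatin immunoprecipitation of 5 antibodies in control and kd 81K1 cells gave 10 libraries, with 4 inputs, 1 library per antibody and condition. Per the labels and methods, reads were trimmed with Trim Galore, aligned to mm10 with Bowtie2 and filtered with SAMtools 1.9. Smarca4 and Ezh2 peaks were called by the authors with MACS2 and islands of the marks with SICER, each library on its own. The methods name the input as background and the peak names IgG, so the background is uncertain. The deposited score is the MACS2 score of a peak, and the deposited p-value the SICER p-value of an island. Neither is scaled between libraries. Islands with p listed as 0 share 1 rank. The depth is unknown, and the lists' floor is the authors' threshold.

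Regions outside the autosomes and sex chromosomes were dropped, and the rest were counted in windows with flanks of 20 kb around GENCODE M21 genes (GRCm38), of which 21938 are protein-coding. TSS regions are those within 1 kb of the start of the gene record. Overlap needed 1 bp, and intervals are Wilson intervals at 95%. Python 3.11.15, numpy 2.4.6, pandas 2.3.3 and statsmodels 0.14.6 were used, and the overlap functions were tested on simulated data. The members and lists were chosen with earlier results of these data known. All 9 members were described. Singly named regions were, per member, the strongest Smarca4 peak, the strongest control-only and kd-only Smarca4 peak, regions at the TSS (of several Smarca4 peaks there, at least the strongest), and every Ezh2 peak and H3K27me3 island; other H3K27ac and H3K4me3 islands were added after their values were seen. Promoter sequences are from RefSeq (GRCm38.p6). Alternatives were other flanks, thresholds, overlap rules and starts.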

Additional observations from a re-analysis of the deposited data

How the results depend on the processing

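Of 124 values recomputed under the alternatives, 110 stayed within 1.5 times the value given. They were counts over the 9 windows, numbers of members with a region at the TSS, and median percentiles of Smarca4 counts, all without Ezh2. For Ezh2, the stricter threshold left 1 peak in kd and 0 kd-only, and merging left 1 kd-only. Without repeat-masked regions, 0 control-only Ezh2 peaks were left. With starts of any transcript, Ezh2 lay at 1 member in control and 2 in kd. Differences of single members turned their sign in 8 cases. With a flank of 5 kb in place of 20 kb, the windows held 112 Smarca4 peaks in kd, and with 50 kb they held 259, of which 67 were kd-only. The stricter threshold (a score of 50, or a −log10 p of 20, set to 10 for H3K27ac) left 110 Smarca4 peaks in kd, 26 of them kd-only. It left 4 H3K27me3 islands in kd, 3 control-only H3K27ac islands, and 0 control-only and 1 kd-only H3K4me3 islands. Merging regions up to 500 bp apart left 28 control-only and 25 kd-only Smarca4 peaks. With regions under 50% repeat-masked alone, H3K27ac had 4 control-only and 9 kd-only islands. With lists of equal length, there was 1 kd-only H3K4me3 island.

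Differences in Smarca4 count that turned sign (kd minus control) were those of Klf2 with a 5 kb flank (−1) and the stricter threshold (−2), Esrrb with the stricter threshold (1) and merging (4), Tfcp2l1 with a 50 kb flank (1), and Prdm14 and Nr5a2 with merging (−1 each). The H3K27ac difference of Klf5 was 2 under the stricter threshold. H3K27me3 had more islands in kd at 0 members under each of the 6 alternatives run for it, and fewer at 5 to 7.

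No paired analysis was possible because each antibody and condition had 1 library, and for the same reason none was left out in turn. The depth of the libraries is unknown, and its part in the numbers of listed regions was not tested.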
